A study of Homo sapiens with 4 samples.

Results

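The peroxiredoxins PRDX1, PRDX2, PRDX3, PRDX4, PRDX5 and PRDX6, the glutathione peroxidases GPX1 and GPX4, the superoxide dismutase SOD1 and catalase (CAT) were followed in K562 cells after treatment with AC-1041. The members were taken by gene name from the gene probes of the arrays, which gave 1 probe for each of the 10 genes, out of 14272 gene names and 14297 gene probes in all. K562 is a human erythroleukemia cell line, and AC-1041 is a fluorescent thalidomide analog of the amino-substituted trifluorophthalimide type that stains lipid droplets. RNA of treated cells and of control cells was hybridised together on each of 4 Agilent arrays, so each array gave 1 ratio of treated to control. The treated cells had received AC-1041 for 4 h, at a micromolar dose according to the methods of the study. The control cells are called untreated in the sample labels and DMSO-treated in the methods. On arrays 1 and 2 the treated RNA was in the Cy5 channel, and on arrays 3 and 4 the dyes were exchanged. No label ties an array to a culture, so the spread between arrays on which the p-values rest may be technical.

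Hydrogen peroxide arises in cells from superoxide, which SOD1 converts, and from oxidases of the endoplasmic reticulum, the peroxisome and other sites. Peroxiredoxins reduce it with an active cysteine that thioredoxin and thioredoxin reductase regenerate, glutathione peroxidases use glutathione, and catalase splits it in peroxisomes. A peroxiredoxin that is oxidised too far is repaired by sulfiredoxin, encoded by SRXN1. Erythroid cells are rich in several of these enzymes, PRDX2 and catalase above all.

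The probes are 60 bases long, and the sequences that matter for reading the values are given 5′ to 3′ as the array files list them, with no part set in capitals. PRDX1 is shown because its ratios separated by dye, PRDX4 because it is a close relative of PRDX1, and PRDX3 because of its strand. Positions are those of the array files on hg18.
PRDX1, chr1:45752882-45753176, minus strand: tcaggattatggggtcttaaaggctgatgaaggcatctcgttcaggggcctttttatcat
PRDX4, chrX:23610487-23610546, plus strand: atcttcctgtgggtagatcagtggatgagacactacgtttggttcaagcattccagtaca
PRDX3, chr10:120919922-120919981, plus strand: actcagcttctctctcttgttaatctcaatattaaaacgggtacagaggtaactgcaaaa
The longest run of bases shared by any 2 of the 10 probes was 8, so no pair of member probes held a long stretch in common. Probes were compared with each other and not with transcripts, so whether a probe also binds the transcript of a relative was not tested. The listed interval of the PRDX1 probe is longer than the probe itself, as are those of PRDX5 (chr11:63845091-63845667) and GPX4 (chr19:1056797-1057421). The other probes lie at chr19:12771571-12771630 for PRDX2, chr1:171723707-171723766 for PRDX6, chr3:49369625-49369684 for GPX1 and chr11:34449610-34449669 for CAT. No annotation of hg18 was used, so exons and untranslated regions were not assigned. The probe named PRDX3 is listed on the plus strand, while RefSeq places the PRDX3 gene on the minus strand. For 10546 of 10647 gene probes (99.1%) the listed strand was that of the gene. The values under the name PRDX3 are therefore given as those of this probe and not of PRDX3 mRNA.

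The ratios differed between the dye orientations. Across probes the log2 ratios correlated at 0.81 between arrays 1 and 2 and at 0.94 between arrays 3 and 4, but at -0.29 to -0.12 between arrays of opposite dye orientation. The ratio was fitted with limma as a treatment term and a dye term. Standard errors and p-values of this fit measure the spread between arrays of the same dye orientation, not that between orientations. With 4 arrays it left 2 residual degrees of freedom, beside 6.37 prior degrees of freedom taken from all probes tested. Of the 8852 probes tested, 5156 (58.2%) had a dye term with an adjusted p under 0.05 in limma. Outlier spots left out made up 1.57% to 8.08% of probes per array, with the highest share on array 1, and no spot was saturated. All 11 erythroid markers with a probe were measured, and for 9 of them both channels exceeded background clearly on each array. Of the markers of T cells and fibroblasts, 0 of 5 each reached that, while CD79A, LYZ, ITGAM and EPCAM were among those that did so from the B cell, monocyte and epithelial lists.

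Of the 10 members, all tested, PRDX6 was the 1 that rose and CAT the 1 that fell at an adjusted p under 0.05 in limma. Over all 8852 probes tested, 24.3% rose and 13.0% fell (37.4% in either direction). Whether the members differ from these shares was not tested. The median log2 ratio of the members was 0.08, against 0.02 over all probes tested, and the estimates ran from -0.23 to 0.38. For the 8 members not past the threshold, the 95% intervals of the log2 ratio lay between -0.36 and 0.42, which is 0.782-fold to 1.34-fold. The intervals of GPX4 and SOD1, not adjusted for the number of probes, excluded 0. Missing the threshold does not show that a member was unchanged. Without the dye term, 0 of 10 members passed in either direction (smallest adjusted p of 0.492 in limma, and 0 at an unadjusted p under 0.05), and over all probes 0.582% of probes rose and 0.0448% fell. The arrays carry RNA of bulk cells, so fewer cells with a transcript and less of it per cell cannot be told apart.

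**Figure D1:**
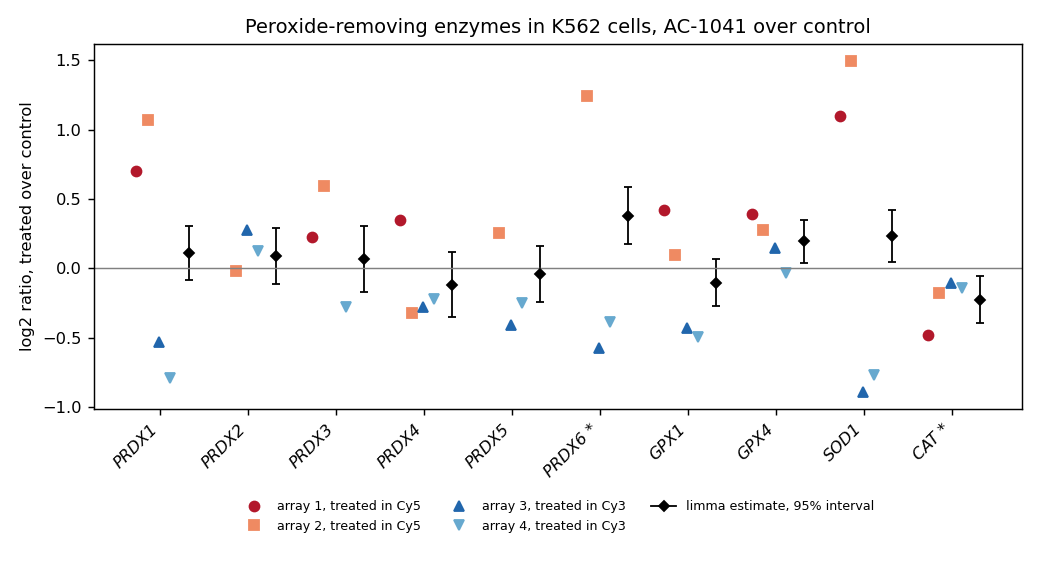
Log2 ratio of treated over control for each of the 10 enzymes (vertical axis), with 1 point per array coloured by dye orientation and the limma estimate with its 95% interval as a black diamond and bar. Stars mark PRDX6 and CAT, the members past an adjusted p of 0.05. The arrays with treated RNA in Cy5 lie above those with it in Cy3 for PRDX1, PRDX3, PRDX5, PRDX6, GPX1, GPX4 and SOD1. The gap is widest for PRDX1, PRDX6 and SOD1. All 4 arrays lie below 0 for CAT alone.

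Most members showed a split by dye, as did most probes tested. With treated RNA in Cy5, the mean log2 ratio was above 0 for 8 of the 10 members, with a median of 0.29 over members. With treated RNA in Cy3 it was above 0 for 2 of the 10, PRDX2 and GPX4, with a median of -0.30. In limma, 6 members had a dye term with an adjusted p under 0.05, PRDX1, PRDX3, PRDX5, PRDX6, GPX1 and SOD1, against 58.2% of all probes tested. Of all 10 members, 7 had spots within the 3% brightest of the array, PRDX1 being at place 15 and SOD1 at place 88 of 14297. The GPX1 spot was at place 7875 and the PRDX3 spot at place 8441. Brightness depends on the probe as well as the transcript, so these places do not rank the transcripts.

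**Figure D2:**
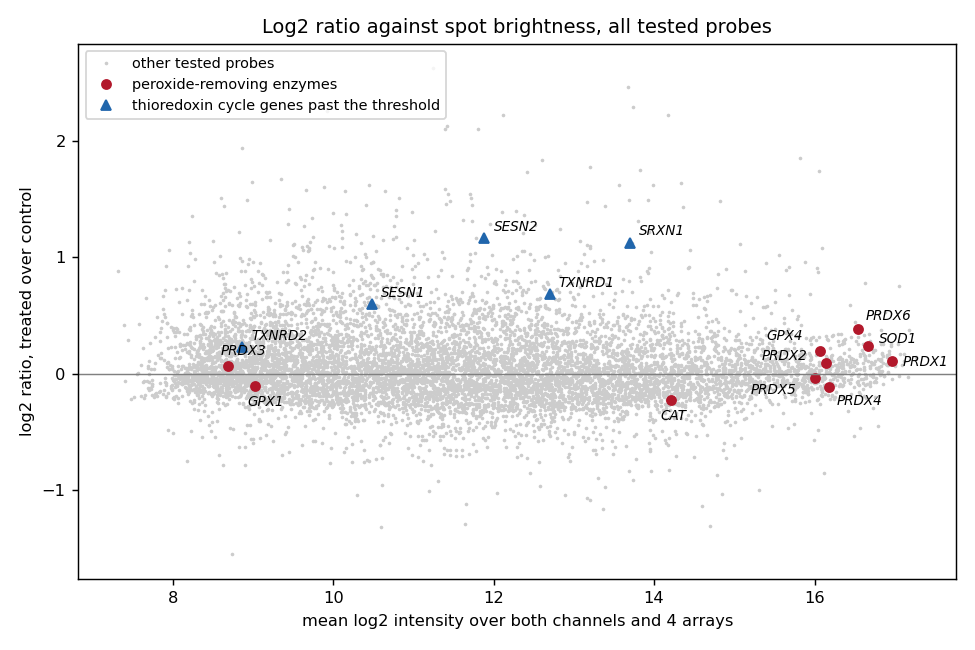
Limma log2 ratio of treated over control (vertical axis) against the mean log2 intensity of both channels (horizontal axis) for the 8852 tested probes in grey, the 10 members as red circles and the 5 thioredoxin cycle genes past the threshold as blue triangles. The members lie within -0.23 to 0.38, 7 of them at the bright end, and SRXN1 and SESN2 lie above 1.

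PRDX1 and PRDX2 are the cytosolic peroxiredoxins that depend on thioredoxin. The log2 ratios of PRDX1 were 0.70 and 1.07 on arrays 1 and 2, and -0.53 and -0.79 on arrays 3 and 4. Both arrays with treated RNA in Cy5 were high, both with it in Cy3 were low, and the orientations did not overlap. Before normalization the PRDX1 spot was brighter in Cy5 on every array. That held for 9 members, among them PRDX2, PRDX4 and GPX4, whose dye terms missed the threshold. The raw signal alone therefore does not set PRDX1 apart. On array 2 the PRDX1 signal was 232676 in treated cells (Cy5) and 56583 in control cells (Cy3). On array 4 it was 52262 in treated cells (Cy3) and 206439 in control cells (Cy5). Averaged over the orientations, the log2 ratio of PRDX1 was 0.11 ± 0.084 (SE, n = 4 arrays), a 1.08-fold ratio with an adjusted p of 0.334 in limma. Its dye term was 0.77 on the log2 scale, larger than the treatment term. Without array 1 the PRDX1 estimate was 0.20 and the adjusted p in limma 0.0441, past the threshold.

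PRDX2, the abundant peroxiredoxin of red cells, gave log2 ratios of -0.02, 0.27 and 0.13 on arrays 2, 3 and 4, while its spot on array 1 was marked as an outlier and left out. These 3 values lay close together and on both sides of 0. The estimate was 0.09 ± 0.086 (SE, n = 3 arrays), with a 95% interval from -0.11 to 0.29 and an adjusted p of 0.456 in limma. PRDX2 was 1 of the 4 members whose dye term missed the threshold.

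PRDX4 is the peroxiredoxin of the endoplasmic reticulum. Its log2 ratios were 0.34, -0.32, -0.28 and -0.22 on arrays 1 to 4. Array 1 stood alone above 0, and the other arrays lay close together below it. The estimate over 4 arrays was -0.12 ± 0.103 (SE), with a 95% interval from -0.36 to 0.12 and an adjusted p of 0.402 in limma. Without array 1 it was -0.29 and the adjusted p in limma was 0.0043, so array 1 decided this call.

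PRDX5, found in mitochondria, peroxisomes and cytosol, gave 0.25, -0.41 and -0.25 on arrays 2, 3 and 4, with the spot on array 1 left out. The array with treated RNA in Cy5 was high and both others were low. The PRDX5 estimate was -0.04 ± 0.086 (SE, n = 3 arrays), with a 95% interval from -0.24 to 0.16 and an adjusted p of 0.747 in limma. The probe named after PRDX3, the mitochondrial peroxiredoxin, gave 0.23, 0.60 and -0.28 on arrays 1, 2 and 4, with its spot on array 3 left out. Its signal was well above background in treated cells on 3 arrays and in control cells on 2. The estimate of 0.07, with a 95% interval from -0.17 to 0.31, missed the threshold at an adjusted p of 0.637 in limma.

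PRDX6 reduces peroxides, including phospholipid hydroperoxides, with a single active cysteine and glutathione in place of thioredoxin. Its log2 ratio was 1.24 on array 2, -0.58 on array 3 and -0.39 on array 4, and the spot on array 1 was left out. The array with treated RNA in Cy5 was far above 0, and both arrays with it in Cy3 were below 0. The limma estimate, which weighs the orientations equally, was 0.38 ± 0.088 (SE, n = 3 arrays), a 1.30-fold rise with an adjusted p of 0.0133. The plain mean over the 3 arrays was 0.09 ± 1.0 (SD), and an exact two-sided sign-flip permutation test over them gave p = 1 where 0.25 is the smallest possible. The PRDX6 call thus rests on 1 array of the Cy5 orientation. It was past the threshold in 10 of 15 alternative settings. With the marked spot kept, the estimate was 0.26 and the adjusted p in limma 0.0843, and with each array centred on its median in place of loess they were 0.16 and 0.272.

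**Figure D3:**
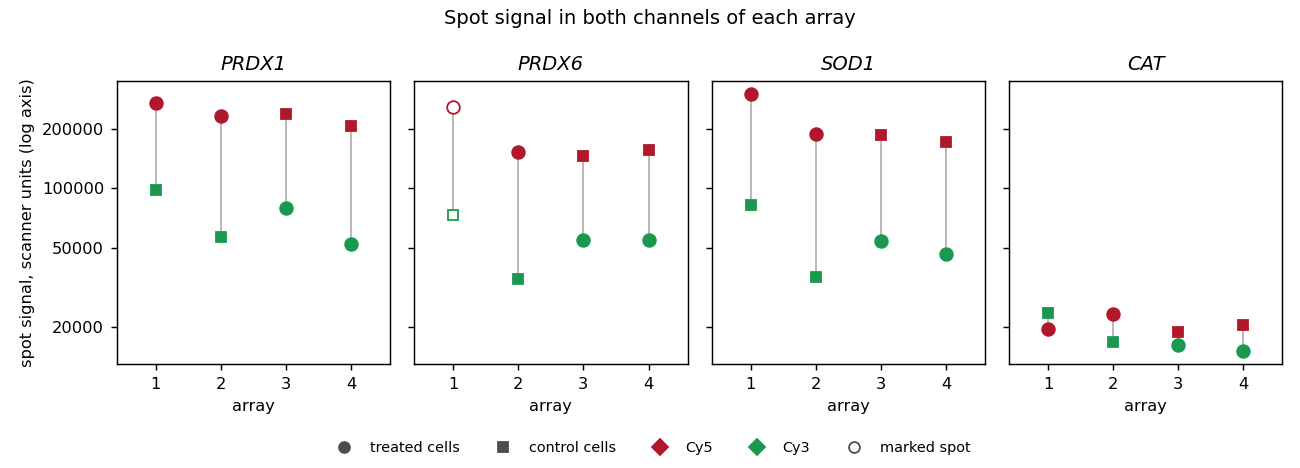
Spot signal as deposited (vertical log axis, scanner units) in both channels of arrays 1 to 4 for PRDX1, PRDX6, SOD1 and CAT, with circles for treated and squares for control cells, red for Cy5 and green for Cy3, and open symbols for the marked PRDX6 spot. For PRDX1, PRDX6 and SOD1 the Cy5 channel was the brighter on all 4 arrays whichever RNA it carried. The same held for 9 members in all, every member but CAT, so it does not set PRDX1, PRDX6 and SOD1 apart. The CAT channels lie close together.

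GPX4 reduces phospholipid hydroperoxides in membranes and is known for holding back ferroptosis. Its log2 ratios were 0.39, 0.27, 0.15 and -0.04 on arrays 1 to 4. Arrays 1, 2 and 3 were above 0, and array 4 lay just below it. The estimate was 0.19 ± 0.069 (SE, n = 4 arrays), a 1.14-fold ratio whose 95% interval ran from 0.04 to 0.35, with an adjusted p of 0.0559 in limma. GPX4 passed the threshold in 3 of 20 alternative settings, among them leaving out array 2 (0.22, adjusted p of 0.0366 in limma).

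GPX1, the cytosolic glutathione peroxidase, gave a dim spot, well above background in treated cells on 3 arrays and in control cells on 2. Its log2 ratios were 0.42 and 0.10 on arrays 1 and 2, and -0.43 and -0.50 on arrays 3 and 4. The sign followed the dye of the treated RNA on every array. The GPX1 estimate was -0.10 ± 0.075 (SE, n = 4 arrays), with a 95% interval from -0.28 to 0.07 and an adjusted p of 0.306 in limma.

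SOD1, which turns superoxide into hydrogen peroxide, showed the widest split. Its log2 ratios were 1.10 and 1.50 on arrays 1 and 2, and -0.89 and -0.77 on arrays 3 and 4. On array 1 the SOD1 signal was 300135 in treated cells (Cy5) and 82985 in control cells (Cy3). On array 3 it was 54203 in treated cells (Cy3) and 186500 in control cells (Cy5). The mean with treated RNA in Cy5 was 1.30 and the mean with it in Cy3 was -0.83, and the orientations did not overlap. The estimate over both was 0.23 ± 0.081 (SE, n = 4 arrays), a 1.17-fold ratio whose 95% interval ran from 0.05 to 0.42, with an adjusted p of 0.0534 in limma. SOD1 passed the threshold in 7 of 20 alternative settings, among them leaving out array 1 (0.33, adjusted p of 0.00125 in limma). With the arrays averaged as dye-swapped pairs, its estimate is 0.23 by construction, and only the measure of spread changes. It then passed at an adjusted p of 0.0457 (arrays 1 with 3 and 2 with 4) or 0.0379 (1 with 4 and 2 with 3) in limma. SOD1 was then the 1 member that rose, since PRDX6 has no value in those fits.

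CAT was the 1 member that was lower on every array. Its log2 ratios were -0.48 and -0.18 on arrays 1 and 2, and -0.10 and -0.14 on arrays 3 and 4. All 4 arrays were below 0 in both dye orientations, with array 1 the lowest, where 9.19% of the 7991 probes measured on all arrays were lower on each of them. The CAT estimate was -0.23 ± 0.074 (SE, n = 4 arrays), a ratio of 0.855 to control with an adjusted p of 0.0415 in limma. An exact two-sided sign-flip permutation test over the 4 arrays gave p = 0.125, which is the smallest they can give. Its dye term, -0.10, missed the threshold. The call was kept in 11 of 20 alternative settings, with estimates from -0.30 to -0.15 in all of them, and was lost without array 1, 3 or 4, at adjusted p of 0.12, 0.165 and 0.227 in limma. Erythroid markers moved in the same direction. Of the 11 with a probe, 6 fell (among them GATA1, KLF1, TAL1, LMO2 and NFE2, named after their values were seen), 1 rose (EPOR), and their median log2 ratio was -0.29. Their summed treated signal ranged from 206191 to 998296 over arrays and their summed control signal from 295454 to 1046944. Their part in the CAT result was not tested.

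Several genes listed under the thioredoxin cycle and peroxiredoxin repair rose. In a list of 12 genes of the thioredoxin cycle and peroxiredoxin repair, 11 were tested, 5 rose (SRXN1, SESN1, SESN2, TXNRD1 and TXNRD2) and 0 fell at an adjusted p under 0.05 in limma, with 0 lower at an unadjusted p under 0.05 as well. Their median log2 ratio was 0.06. The share of probes that rose over the whole array was 24.3%. The difference between this list and the members was not tested.

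**Figure D4:**
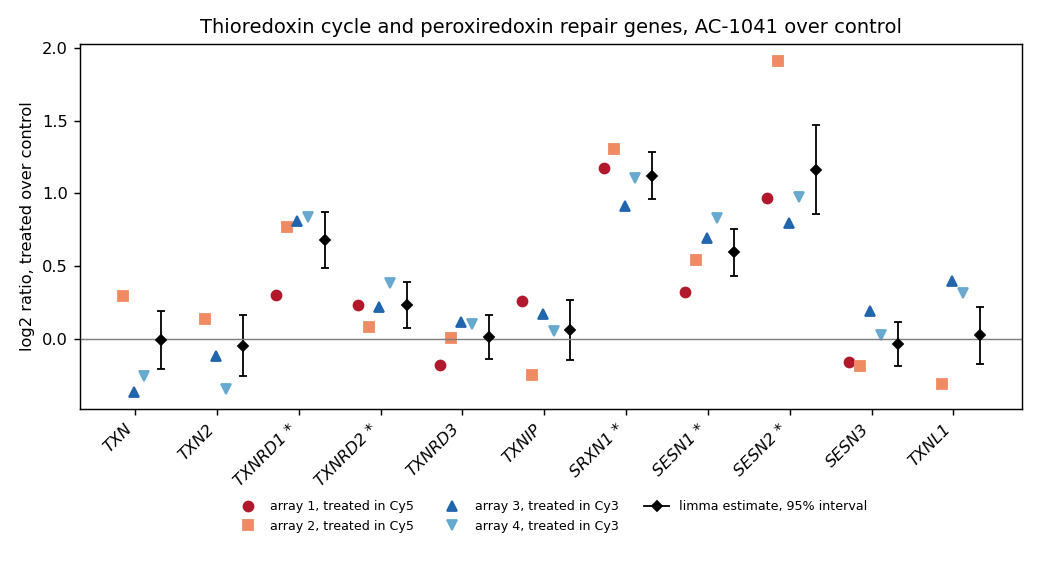
Log2 ratio of treated over control (vertical axis) for the 11 tested genes of the thioredoxin cycle and peroxiredoxin repair, with 1 point per array coloured by dye orientation and the limma estimate with its 95% interval as a black diamond and bar. All 4 arrays lie above 0 for the starred genes TXNRD1, TXNRD2, SRXN1, SESN1 and SESN2, while TXN lies on both sides of 0.

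SRXN1, the sulfiredoxin that restores overoxidised peroxiredoxins, gave log2 ratios of 1.17, 1.30, 0.91 and 1.11 on arrays 1 to 4 (chr20:575563-575622 on hg18). The 4 values were close together whichever dye carried the treated RNA. SRXN1 was 2.18-fold higher, with a log2 ratio of 1.12 ± 0.069 (SE, n = 4 arrays) and an adjusted p of 2.04e-05 in limma. Without the dye term its adjusted p was 0.0319 in limma, and the call held in all 20 alternative settings, with estimates of 1.07 to 1.17. The largest estimate among the members was that of PRDX6, at 0.38.

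The sestrins are stress-induced proteins that have been linked to peroxiredoxin recycling. SESN2 gave log2 ratios of 0.97, 1.91, 0.79 and 0.98 on arrays 1 to 4, all above 0 and array 2 far above the rest. It was 2.24-fold higher (1.16 ± 0.133, SE, n = 4 arrays, adjusted p of 0.000341 in limma). SESN1 gave 0.32, 0.54, 0.69 and 0.83, above 0 on every array, and was 1.51-fold higher with an adjusted p of 0.000407 in limma. SESN3 was dim and its estimate was -0.03, with a 95% interval from -0.19 to 0.12.

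TXNRD1, the cytosolic thioredoxin reductase, gave log2 ratios of 0.30, 0.77, 0.81 and 0.84 on arrays 1 to 4 (chr12:103266763-103266822 on hg18). Array 1 was the lowest, and the other arrays agreed closely across the dye orientations. TXNRD1 was 1.60-fold higher, with a log2 ratio of 0.68 ± 0.085 (SE, n = 4 arrays) and an adjusted p of 0.000516 in limma. TXNRD2, the mitochondrial reductase, was 1.17-fold higher with an adjusted p of 0.0314 in limma, on a spot well above background on 2 arrays in each channel, and kept its call in 10 of 19 alternative settings. It missed the threshold without array 1, 3 or 4, at adjusted p of 0.0515, 0.0969 and 0.255 in limma. TXN, the thioredoxin that TXNRD1 reduces, gave 0.29, -0.37 and -0.26 on arrays 2 to 4 with array 1 left out. Its estimate was -0.01, with a 95% interval from -0.21 to 0.19.

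In a list of related enzymes and a chaperone, no gene that could be tested was called. Of 9 further glutathione peroxidases, superoxide dismutases and the SOD1 copper chaperone CCS, 8 had a probe and 4 were tested, and 0 rose and 0 fell at an adjusted p under 0.05 in limma, with a median of -0.08. At an unadjusted p under 0.05 the count was also 0 of 4. Over all probes tested, 24.3% rose and 13.0% fell. Apart from CCS, the tested genes gave dim spots, well above background in each channel on only 1 or 2 arrays. CCS followed the dye as SOD1 did, with log2 ratios of 0.47, 0.41, -0.52 and -0.45 on arrays 1 to 4. Its estimate was -0.02, with a 95% interval from -0.17 to 0.12. The mitochondrial SOD2 was not well above background on any array in either channel.

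Glutathione recycling, glutaredoxins and the supply of NADPH were covered by 13 genes, all tested, of which 4 rose (GLRX, PGD, ME1 and NNT) and 0 fell in limma, also with 0 lower at an unadjusted p under 0.05. Their median log2 ratio was 0.09, and the share of all tested probes that rose was 24.3%. PGD, an enzyme of the pentose phosphate pathway that makes NADPH, gave 0.31, 0.48, 0.22 and 0.27 on arrays 1 to 4. It was above 0 on all arrays and 1.25-fold higher, with an adjusted p of 0.00719 in limma, which became 0.0586 without array 3 and 0.0869 without array 4. ME1, the cytosolic malic enzyme, gave -0.32, -0.26, 1.01 and 1.05. The ME1 spot was well above background on 2 arrays in each channel. Its ratios were below 0 with treated RNA in Cy5 and above 0 with it in Cy3. The estimate was 0.37, with an adjusted p of 0.0027 in limma. NNT showed the same split, with -0.49, -0.42, 1.21 and 0.80 on arrays 1 to 4. Its signal was well above background on 2 arrays in treated cells and on no array in control cells. The NNT estimate was 0.27, with an adjusted p of 0.0289 in limma. With levels also normalized between arrays and the control raised to the lowest level well above background, the ratio was 1.04-fold. Without array 3 the NNT adjusted p was 0.242 in limma, and with the signals that Feature Extraction had processed its estimate was 1.21 in place of 0.27. GLRX, a glutaredoxin, had an estimate of 0.29 and an adjusted p of 0.0211 in limma, which was 0.163 without array 3 and 0.085 without array 4. GSR, the glutathione reductase, had an estimate of 0.09, with a 95% interval from -0.07 to 0.24.

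Among 21 enzymes that make hydrogen peroxide, 9 were tested, 4 rose (among them ERO1B, QSOX1 and SMOX) and 0 fell in limma, with 1 lower at an unadjusted p under 0.05 (QSOX2, -0.19). Their median log2 ratio was 0.22, again beside 24.3% of all tested probes that rose. QSOX1, a disulfide-forming oxidase of the secretory pathway, gave 0.28, 0.52, 0.66 and 0.42 on arrays 1 to 4. It was above 0 on all arrays and 1.39-fold higher, with an adjusted p of 0.0019 in limma. ERO1B, an oxidase that serves disulfide formation in the endoplasmic reticulum, gave -0.39, 0.16, 1.69 and 1.88. Its arrays 3 and 4 were far above arrays 1 and 2, and its spot was well above background on 2 arrays in each channel. The ERO1B estimate was 0.83 with an adjusted p of 0.000342 in limma, beside a dye term of -0.95. Without the dye term the adjusted p was 0.463 in limma. SMOX, which oxidises spermine, had an estimate of 0.24 and an adjusted p of 0.0202 in limma, which was 0.122 without array 3 and 0.156 without array 4. ERO1A, related to ERO1B, missed the threshold at 0.22, with an adjusted p of 0.0827 in limma.

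**Figure D5:**
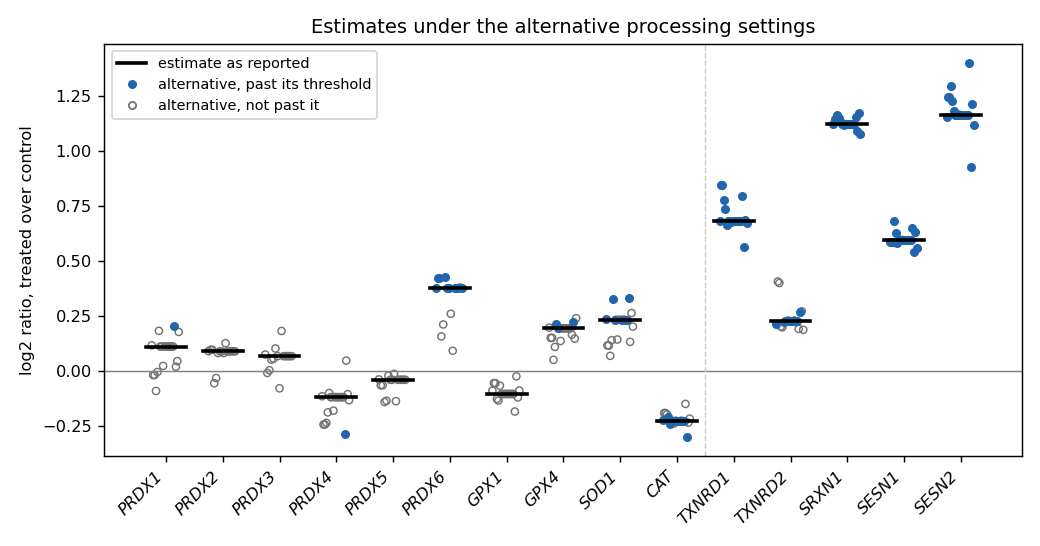
Log2 ratio of treated over control (vertical axis) of the 10 members and 5 thioredoxin cycle genes under the alternative processing settings, with filled points where the alternative passed its threshold, open points where it did not, and a black bar for the estimate reported. All points of SRXN1 are filled, PRDX6 and CAT mix both kinds, and the points of PRDX1 to PRDX4 lie on both sides of 0.

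Promoters were searched for the motif TGACNNNGC, the core letters to which NRF2 and related factors are known to bind, on both strands, in the 250 bases before and 50 after each RefSeq start on GRCh38.p14. The motif was in 13.3% of all 35116 windows. It was in 0 of 10 windows of the 7 members with an entry. PRDX1, PRDX6 and SOD1 had no entry and were not searched. It was in 5 of 17 windows of the 11 genes with an entry among those of the pathway lists that rose, and these belonged to 4 genes (PGD, ME1, SESN1 and TXNRD1). The others with an entry, among them SRXN1 and SESN2, had no match. TXNRD1 is shown because it was the thioredoxin cycle gene that rose with a match before 2 of its starts. The motif is in capitals within 30 bases on each side, read along the gene's plus strand.
TXNRD1, chr12:104215650-104215718: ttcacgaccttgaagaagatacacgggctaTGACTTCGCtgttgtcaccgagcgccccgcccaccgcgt
TXNRD1, chr12:104286900-104286968: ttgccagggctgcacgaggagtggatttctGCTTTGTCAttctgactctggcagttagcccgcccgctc
In the first stretch the motif reads along the gene and in the second on the opposite strand. A match of these letters is a description of the sequence and not of binding.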

How the data were processed

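The authors deposited, per array, the intensity of every spot and its local background as written by Agilent Feature Extraction, a second set of intensities after its own dye correction, and log10 ratios of the channels. The deposited series table holds log10 ratios that were within 0.001 of these for 99.9% to 100% of values, after a sign change on arrays 3 and 4. From the uncorrected intensities, background was corrected by normexp (offset 50) and each array was normalized by loess (span 0.3), without outlier spots. Tested probes had 1 or both channels well above background on 2 or more arrays. The log2 ratios were fitted in limma 3.58.1 (R 4.3.3) with treatment and dye terms, and p-values were Benjamini-Hochberg adjusted over 8852 probes. RefSeq names of GRCh38.p14 were matched by transcript accession for 12002 probes, and probe positions follow the files (hg18). The members and the gene lists were chosen with earlier results of these data known. All members were named, and of the other lists the genes past the threshold with the main partners of the members. SESN3, SOD2 and ERO1A were added after their values were seen. Where a gene had several probes, the brightest was used. Alternatives covered background correction, normalization, filters, the dye term, array weights, averaged array pairs, thresholds and each array left out. On simulated data with 100 changed probes of each size among 8852, the limma step recovered 82% of log2 changes of 1 and 7% of log2 changes of 0.3. In the data 37.4% of probes were called. The adjusted threshold depends on the share of changed probes, so these simulated rates do not give the sensitivity in the data. The number of arrays limits the precision. Some genes of the lists and some probe sequences and positions are not reported here.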

Additional observations from a re-analysis of the deposited data

Results flagged for a closer look

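Among the 36 genes whose log2 ratios on 4 arrays were examined for a sample far from the others, 3 had a gap to the nearest array that, as a share of the whole range, exceeded Dixon's 95% critical value, which chance passes in about 1 in 20 groups. For TXNRD1 the gap was 0.867 of the range, with array 1 at 0.30 and the other arrays from 0.77 to 0.84. For PRDX4 it was 0.855, with array 1 at 0.34 and the other arrays from -0.32 to -0.22. For SESN2 it was 0.836, with array 2 at 1.91 and the other arrays from 0.79 to 0.98.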

How the results depend on the processing

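SRXN1 kept its call under all 20 alternatives, and TXNRD1 and SESN2 under 19 of 20, the exception being the fit without a dye term. No estimate past the threshold changed its direction under any alternative. Of the 10 members, 1 rose and 1 fell as reported. The number that rose was 2 without background subtraction or with array weights, 3 with scale normalization between arrays or when both channels had to be well above background on all arrays, and 0 with median centring, a loess span of 0.7, marked spots kept, no dye term or an adjusted p under 0.01. The number that fell was 0 with the signals processed by Feature Extraction, the series values, median centring, marked spots kept, no dye term or an adjusted p under 0.01. Leaving out each array in turn gave 0 to 3 members that rose and 0 to 1 that fell, with a median of 0.03 to 0.09. The causes were not tested. PRDX2, PRDX3, PRDX5 and PRDX6 have no value in some of these fits, since 1 of their spots was marked.

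Over all probes, 2155 rose and 1152 fell, against 2364 and 596 with median centring, 1342 that rose with both channels above background on all arrays, 52 and 4 without the dye term, and 1353 and 468 at an adjusted p under 0.01. Without 1 array the counts ranged from 1008 to 2590 that rose and from 283 to 1469 that fell, with 1241 and 439 without array 3 and the lowest counts without array 4. Of the thioredoxin list, 3 genes rose when both channels had to be above background, 1 (SRXN1) without the dye term, and 4 to 5 without 1 array. Of the glutathione and NADPH list, 2 rose with both channels above background or an adjusted p under 0.01, 0 without the dye term and 1 to 5 without 1 array, and 1 fell with median centring or marked spots kept, and 0 to 1 without 1 array. Of the enzymes that make hydrogen peroxide, 2 rose and 1 fell with both channels above background, 0 rose without the dye term, and 3 to 5 rose and 0 to 1 fell without 1 array. The labels tie no 2 arrays together, so both possible sets of dye-swapped pairs were averaged in turn. Each paired fit had 1 member that rose, SOD1 (adjusted p of 0.0457 and 0.0379 in limma) in place of PRDX6, which has no value there, and 1 that fell, CAT (0.0357 and 0.0458). All 4 arrays lie on 1 slide, so a slide block was not run.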
